A study of Mus musculus with 8 samples.

Results

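The genes described here encode protein subunits of respiratory complexes I to IV, measured in mouse aorta with and without a deletion of serum response factor (SRF) induced in smooth muscle. Members were chosen by symbol: Ndufa, Ndufb, Ndufc, Ndufs and Ndufv genes for complex I, the Sdh genes for complex II, the Uqcr genes for complex III and the Cox4 to Cox8 genes for complex IV. The isoforms Ndufa4l2, Cox7a1 and Cox8b and the assembly factors were left out. This gave 61 genes of the 18193 that the array annotation names with 1 symbol: 34 of complex I, 4 of complex II, 8 of complex III and 15 of complex IV. Of the 61, 57 passed the filter on dim probe sets and were tested. The other 4 (Ndufb4, Cox4i2, Cox7b2 and Cox8c) were below it on the probe sets used.

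All 8 aorta samples came from 4-month-old mice carrying SRF-flex2neo, a floxed Srf allele, and all mice received 1 mg of tamoxifen intraperitoneally on 3 days. The 4 mutant arrays came from mice that also carried SM22CreERT2ki/+, a tamoxifen-activated Cre knocked in at Tagln, which encodes the smooth muscle protein SM22, and the 4 control arrays from littermates without it. RNA was taken 8 days after tamoxifen, so the groups differ in the Cre allele and its effect, and share the floxed allele and the drug. The titles fall into 2 sets, each with 2 control and 2 mutant arrays, and the sources used here do not say what the number means. Controls 1 and 2 and mutants 1 and 2 are in set 1, and controls 3 and 4 and mutants 3 and 4 in set 2. Whether every array holds a mouse of its own is not in the labels, and p-values then cover no more than the spread among the arrays.

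The respiratory chain of the inner mitochondrial membrane passes electrons from NADH, at complex I, and from succinate, at complex II, to ubiquinone, then through complex III and cytochrome c to complex IV, which reduces oxygen. Complexes I, III and IV pump protons, and the gradient drives ATP synthase. Brown fat, found around the aorta, and heart, at its root, are rich in mitochondria, and complex IV has muscle and testis isoforms of several subunits.

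Values are log2 intensities, so a difference of 1 is a 2-fold change. The array called mutant 2 stood apart before any comparison. The 6 tested nerve and Schwann cell markers were at a median of 6.14 above their own means over the 8 arrays there, and between -1.035 and -0.57 from those means in the other 7 arrays. White fat markers were 2.62 above in mutant 2, and brown fat markers 1.54 above. Endothelial markers were 1.53 above in mutant 2, where 9 of 10 were highest, and 1.10 above in mutant 1. Leukocyte markers were 0.695 above in mutant 2 and 1.12 above in mutant 1. Smooth muscle markers, which define the tissue, were present throughout: the mean level of 12 such genes was between 13.36 and 13.48 in controls and between 12.98 and 13.14 in mutants, and all 12 were lower in mutants, 7 of them at an unadjusted p under 0.05 and 0 after adjustment (limma). All 10 endothelial, 9 fibroblast and 11 leukocyte markers were higher in mutants, with median differences of 0.99, 1.03 and 1.15, and 0 passed adjustment (limma; 8, 8 and 10 at an unadjusted p under 0.05). Of all 27021 probe sets, 1217 were higher and 1364 lower in mutants at an unadjusted p under 0.05, and 0 passed adjustment (limma). In bulk tissue, fewer cells of a type and less RNA per cell cannot be told apart. Srf itself, on its brighter probe set, was 10.52, 10.20, 10.15 and 10.34 in controls 1 to 4 and 10.21, 9.54, 10.32 and 10.34 in mutants 1 to 4. The groups overlapped, and the difference was -0.20 ± 0.19 (SE; limma adjusted p = 0.686), and -0.009 ± 0.10 without mutant 2 (adjusted p = 0.997). The sources used here do not place this probe set relative to the deleted part of Srf, so it does not check the labels.

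Promoter sequence is a feature of the members that the choice by symbol did not use. RefSeq promoter windows (GRCm38.p6, 250 bases before to 50 after a start) were matched for 49 of the 61 members, 51 windows in all. The NRF1 motif (GCGCA, any base, GCGC), searched like the others on both strands, was in 10 of the 51 windows (19.6%), against 4.6% of all 32851 windows. The YY1 motif AAGATGGC was in 6 (11.8%, against 2.75%), the ETS motif CCGGAAGT in 4 (7.8%, against 3.89%) and the ERR motif AAGGTCA in 4 (7.8%, against 4.72%). The CArG box, to which SRF binds, was in 0 of 51 windows, against 1.63% of all. Counted by gene, the NRF1 motif was in 9 of 49 members. These are letters in a window, not sites shown to be bound, and the windows were not matched for base composition. The 150 bases before the start are shown for 1 member of each complex whose window holds an NRF1 or ETS motif there, and for Cox6b2, the member with the smallest p, which has none of the 5 motifs in its stretch. Ndufa8 is a complex I accessory subunit (chr2:36049339-36049488), Sdha the flavoprotein of complex II (chr13:74350241-74350390), Uqcr11 an accessory subunit of complex III (chr10:80406822-80406971), Cox6a1 the widely expressed form of subunit 6a of complex IV (chr5:115348959-115349108) and Cox6b2 the testis form of subunit 6b (chr7:4753095-4753244). All 5 are on the minus strand and written 5′ to 3′, with motifs in capitals.
Ndufa8: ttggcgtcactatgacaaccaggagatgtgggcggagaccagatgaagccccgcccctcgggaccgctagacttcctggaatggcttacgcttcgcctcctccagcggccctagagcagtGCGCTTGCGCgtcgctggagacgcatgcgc
Sdha: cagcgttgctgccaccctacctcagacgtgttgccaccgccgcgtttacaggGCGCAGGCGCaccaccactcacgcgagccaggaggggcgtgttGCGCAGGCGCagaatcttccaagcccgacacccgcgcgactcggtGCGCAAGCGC
Uqcr11: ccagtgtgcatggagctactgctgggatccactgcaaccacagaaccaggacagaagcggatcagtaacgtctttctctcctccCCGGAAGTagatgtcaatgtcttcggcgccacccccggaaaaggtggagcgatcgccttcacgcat
Cox6a1: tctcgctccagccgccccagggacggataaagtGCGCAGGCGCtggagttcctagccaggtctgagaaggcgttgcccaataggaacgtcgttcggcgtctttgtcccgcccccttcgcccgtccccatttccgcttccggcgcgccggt
Cox6b2: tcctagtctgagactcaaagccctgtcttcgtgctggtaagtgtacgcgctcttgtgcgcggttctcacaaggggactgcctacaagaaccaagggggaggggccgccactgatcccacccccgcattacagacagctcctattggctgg
Sdha holds 3 copies of the NRF1 motif in this stretch, Ndufa8 and Cox6a1 hold 1 each, and the capitals in Uqcr11 mark the ETS motif.

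The comparison of mutant with control aorta asks whether these genes changed after SRF was deleted. With all 8 arrays, 54 of the 57 members were higher in mutants and 3 lower, with a median difference of 0.17. Over all probe sets tested 39.4% were higher, and the median was -0.035. The median was 0.17 for the 33 tested members of complex I, 0.295 for the 4 of complex II, 0.23 for the 8 of complex III and 0.15 for the 12 of complex IV. The core subunits of complex I, which bacterial complex I shares, had a median of 0.20 over 6 genes, and the supernumerary subunits 0.16 over 27. No member passed at an adjusted p of 0.05 (limma), where 0% of the 27021 probe sets did. The count of members at an unadjusted p under 0.05 was 1, higher in mutants (Cox6b2), or 1 of 57 where 4.5% of probe sets were called in that direction. SEs of the member differences ran from 0.051 to 0.54.

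These differences rested on 1 array. Without mutant 2, 25 members were higher in mutants and 32 lower, where 45.5% of probe sets were higher, and the median was -0.011. It was -0.010 in complex I, -0.0125 in complex II, -0.020 in complex III and -0.008 in complex IV. The number of members at an unadjusted p under 0.05 was then 2, both lower in mutants, where 4.09% of probe sets were, and 0 passed after adjustment (limma). They were Ndufv2, a core iron-sulfur subunit of complex I, at -0.18 ± 0.068 (SE; adjusted p = 0.549), and Ndufb2, a membrane-arm subunit, at -0.13 ± 0.051 (SE; adjusted p = 0.563). With all 8 arrays the ranges of control and mutant arrays overlapped for all 57 members. Of all probe sets, 3% had groups of 4 and 4 arrays that did not overlap, so 0 of 57 members is near that share. Without mutant 2 the ranges overlapped for all 57 members as well, and the share of all probe sets was not computed there.

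**Figure D1:**
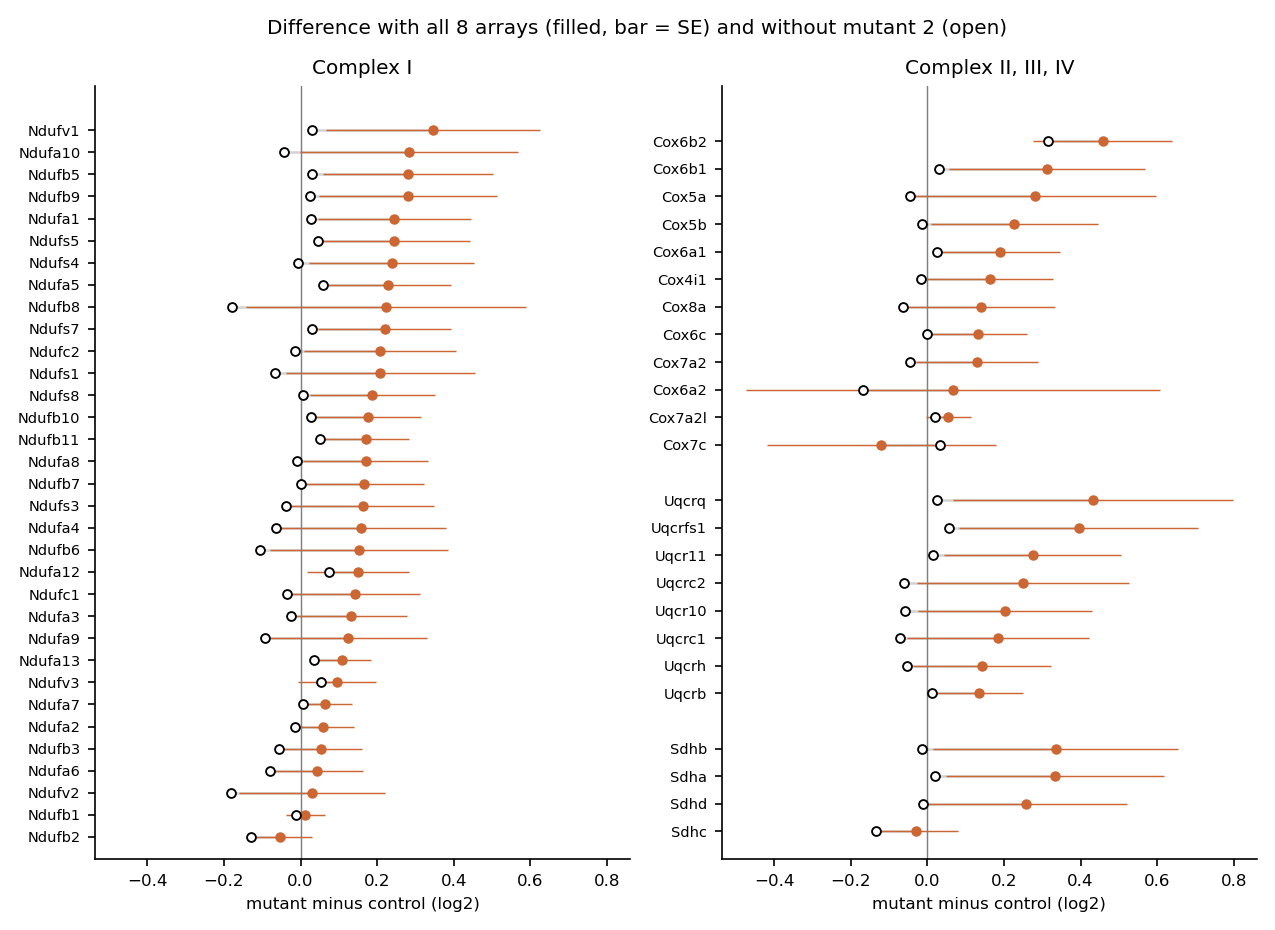
Difference between mutant and control arrays (log2, x axis) for each of the 57 tested members (y axis), grouped by complex. Filled points use all 8 arrays with bars of 1 SE, and open points leave out mutant 2. The filled points lie above 0 for 54 members, and the open points lie on both sides of 0, 25 above and 32 below.

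Mutant 2 was the highest of the 8 arrays in 52 of 57 members, against 18.2% of all probe sets. Over the 12173 genes tested, each on its brightest probe set, it was highest in 2832 and lowest in 4015. Mutant 2 was lowest in 9464 of the 27021 probe sets and in 0 members, so this array stood apart in both directions. Its excess over the mean of the other 7 arrays had a median of 0.77, or 1.71-fold, and ranged from -0.89 for Cox6a2 to 1.59 for Uqcrq. In 16 members the excess was over 1. In 42 members the gap between mutant 2 and the next highest array was larger than the whole range of the other 7. The shares of all probe sets with such an excess or such a gap were not computed. The median excess was 0.70 in complex I, 1.25 in complex II, 1.00 in complex III and 0.67 in complex IV. Other probe sets of the same genes did likewise: mutant 2 was highest in 100 of the 115 tested member probe sets, and in all tested probe sets of 26 of the 35 members with several. The 5 members without mutant 2 on top were Ndufa2 and Ndufa12 of complex I and Cox6a2, Cox7a2l and Cox7c of complex IV. In Ndufa2 it tied with mutant 3 at 12.40.

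**Figure D2:**
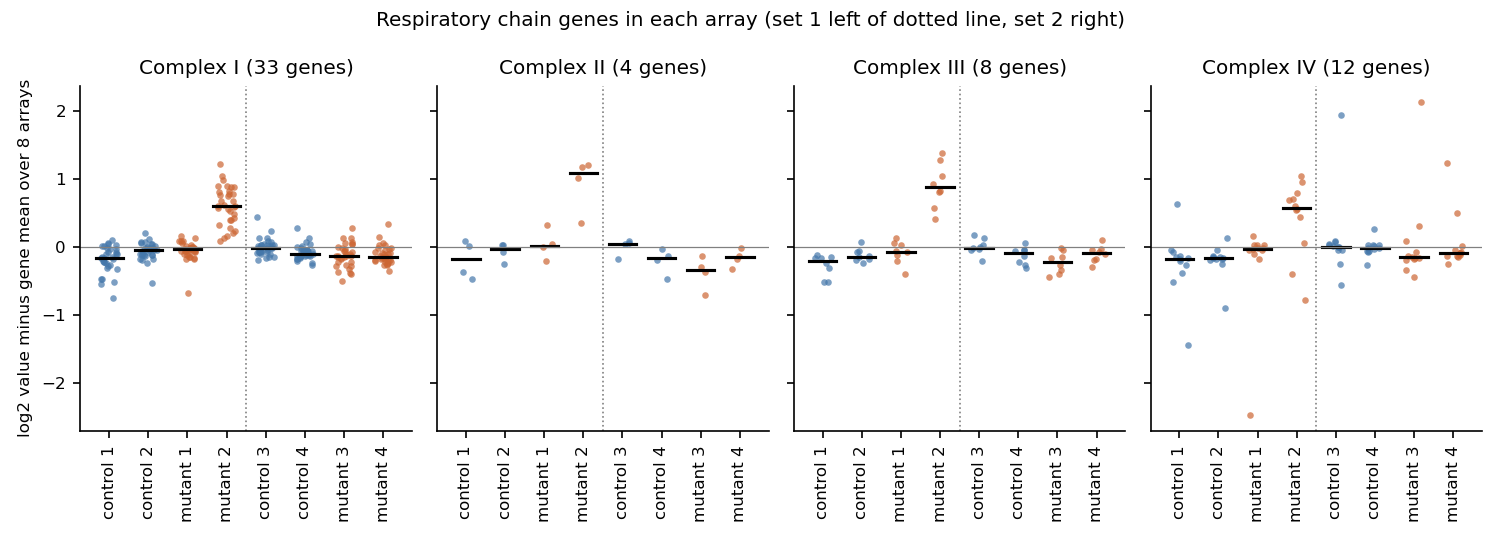
Each point is a member's log2 value minus its own mean over the 8 arrays (y axis), by array (x axis) and complex, with controls in blue, mutants in orange and black lines at the medians. Mutant 2 lies above the other arrays in every complex, and the widely scattered points of complex IV in the other arrays are those of Cox6a2 and Cox7c.

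Among the other 7 arrays the median over the members varied little, and single members varied more. The median deviation from the mean of those 7 arrays lay between -0.076 in control 1 and 0.090 in control 3. A member's range over the 7 arrays had a median of 0.33, and it was over 1 in 4 members: 4.62 in Cox6a2, 1.19 in Ndufa10 and in Cox7c, and 1.03 in Sdhd. Control 1 was the lowest of the 8 arrays in 24 members, or 42.1% where 12.9% of probe sets were lowest there. Mutant 3 was lowest in 14 (24.6%, against 12.3%) and mutant 4 in 7 (12.3%, against 8.43%). Control 1 also had the lowest brown fat markers, at a median deviation of -1.67, and this association was not tested.

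In complex I, which oxidises NADH, the largest difference was that of Ndufv1, the subunit that binds NADH and flavin. Its values were 10.93, 11.17, 11.49 and 11.34 in controls 1 to 4 and 11.24, 12.39, 11.31 and 11.37 in mutants 1 to 4. Mutant 2 was 0.90 or more above every other array, and mutants 1, 3 and 4 lay within the controls' range. The difference was 0.345 ± 0.28 (SE; limma adjusted p = 0.666), and 0.031 ± 0.091 without mutant 2. All 3 of its probe sets were highest in mutant 2.

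Ndufs7, the iron-sulfur subunit next to the ubiquinone site, had 11.87, 12.10, 12.00 and 11.97 in controls and 12.03, 12.78, 12.06 and 11.95 in mutants. Ndufa5, an accessory subunit of the matrix arm, had 11.73, 12.00, 12.06 and 11.92 in controls and 12.04, 12.64, 11.99 and 11.95 in mutants. In both genes the 3 other mutant arrays lay within the range of the controls. Their differences were 0.22 ± 0.17 and 0.23 ± 0.16 (SE; limma adjusted p = 0.660 and 0.633), and 0.030 and 0.058 without mutant 2. Ndufb11 and Ndufa13 had differences of 0.17 ± 0.11 and 0.11 ± 0.076 (SE; adjusted p = 0.617 and 0.629), the smallest p-values of the complex, and 0.052 and 0.036 without mutant 2. Ndufb2 was the 1 complex I member with a difference below 0, at -0.05 ± 0.083 (SE; adjusted p = 0.812). Ndufb8, a membrane-arm subunit named after its values were seen, had the largest excess in mutant 2 in the complex, 1.40. It read 10.72, 11.11, 11.37 and 11.27 in controls and 11.06, 12.45, 10.84 and 11.01 in mutants, so that mutants 3 and 4 were below both controls of their set.

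Ndufa4 has a complex I name but is now assigned to cytochrome c oxidase. It read 10.82, 10.95, 10.97 and 10.88 in controls and 11.14, 11.81, 10.49 and 10.81 in mutants. Both mutants of set 1 were above, and both of set 2 below, the controls of their set. The difference was 0.16 ± 0.22 over both sets (SE; limma adjusted p = 0.787), and -0.063 without mutant 2.

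Complex II oxidises succinate and is also the citric acid cycle enzyme succinate dehydrogenase. Sdha, the flavoprotein that holds the catalytic site, read 10.68, 11.07, 11.21 and 10.96 in controls and 10.94, 12.16, 11.01 and 11.14 in mutants. Sdhb, the iron-sulfur subunit, read 10.84, 10.96, 11.30 and 11.08 in controls and 11.21, 12.39, 10.84 and 11.08 in mutants. Mutant 2 was 2.23-fold and 2.54-fold above the mean of the other 7 arrays in these genes, and the other mutants lay within the range of the controls. The differences were 0.33 ± 0.28 for Sdha and 0.335 ± 0.32 for Sdhb (SE; adjusted p = 0.669 and 0.693), and 0.020 and -0.014 without mutant 2.

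The membrane anchors of complex II differed from each other. Sdhd read 9.62, 9.55, 9.35 and 9.06 in controls and 9.85, 10.74, 8.82 and 9.20 in mutants, with an excess of 1.39 in mutant 2 and a difference of 0.26 ± 0.26 (SE; limma adjusted p = 0.709), and -0.011 without mutant 2. Sdhc read 11.40, 11.41, 11.42 and 11.35 in controls and 11.42, 11.74, 11.09 and 11.21 in mutants. Its controls spanned 0.07, its excess in mutant 2 was the smallest of the complex at 0.41, and mutants 3 and 4 were below all 4 controls. The difference of Sdhc was -0.03 ± 0.11 (SE; adjusted p = 0.925), and -0.135 ± 0.070 without mutant 2 (adjusted p = 0.670).

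All 8 members of complex III, the cytochrome bc1 complex, were higher in mutants with all arrays, and 4 of 8 without mutant 2. Uqcrq, a small subunit near the ubiquinone site, had the largest excess in mutant 2 of all members, 3.01-fold. It read 10.12, 10.47, 10.59 and 10.51 in controls and 10.56, 12.03, 10.30 and 10.53 in mutants. Its difference was 0.43 ± 0.36 (SE; limma adjusted p = 0.668), with a 95% interval from -0.43 to 1.30, and 0.025 without mutant 2, with an interval from -0.28 to 0.33.

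Uqcrfs1 encodes the Rieske iron-sulfur protein, which takes electrons from ubiquinol. Its values were 10.55, 10.71, 10.84 and 10.56 in controls and 11.00, 12.14, 10.42 and 10.68 in mutants. The difference was 0.395 ± 0.31 (SE; adjusted p = 0.661), and 0.058 without mutant 2. Here mutant 1 was also above all 4 controls. Uqcr11 had a difference of 0.275 ± 0.23 (SE; adjusted p = 0.668), and 0.015 without mutant 2. Uqcrb, the ubiquinone-binding protein, had the smallest difference of the complex at 0.135 ± 0.12 (SE; adjusted p = 0.669), and its 7 other arrays lay between 13.72 and 13.86, below 14.28 in mutant 2.

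In complex IV, cytochrome c oxidase, several subunits come as a widely expressed form and a form of muscle, lung or testis. The widely expressed forms followed the other complexes. Cox4i1 read 13.32, 13.31, 13.49 and 13.40 in controls and 13.43, 14.06, 13.29 and 13.39 in mutants, and Cox6a1 read 14.42, 14.42, 14.60 and 14.59 in controls and 14.64, 15.17, 14.46 and 14.52 in mutants. In both, the mutants were above the controls in set 1 and below them in set 2. Cox6b1, which faces the intermembrane space, read 12.96, 13.17, 13.34 and 13.26 in controls and 13.32, 14.30, 13.15 and 13.21 in mutants. The differences were 0.16 ± 0.16, 0.19 ± 0.16 and 0.31 ± 0.26 (SE; limma adjusted p = 0.707, 0.668 and 0.667), and -0.017, 0.025 and 0.030 without mutant 2.

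Cox7a2 and Cox8a, the widely expressed forms of subunits 7a and 8, and Cox6c had differences of 0.13 ± 0.16, 0.14 ± 0.19 and 0.13 ± 0.13 (SE; adjusted p = 0.753, 0.782 and 0.694), and -0.045, -0.064 and -0.001 without mutant 2. Cox7a2l, a factor of supercomplex formation related to subunit 7a, varied little: all 8 arrays lay between 10.48 and 10.71, and the difference was 0.055 ± 0.059 (SE; adjusted p = 0.721). Cox7c had the lowest difference of all members at -0.12 ± 0.30 (SE; adjusted p = 0.885). Its probe set read 6.06, 5.56, 4.87 and 5.44 in controls and 5.24, 5.03, 5.26 and 5.92 in mutants, with no order between the groups.

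Of the testis and lung forms, Cox4i2, Cox7b2 and Cox8c were below the filter in every array, between 1.39 and 2.45. Cox7b is not among these forms, and it had no probe set named by the annotation used. Cox6b2, the testis form of subunit 6b, was above the filter. It read 5.41, 5.33, 5.33 and 5.31 in controls and 5.74, 6.27, 5.88 and 5.32 in mutants. Mutants 1, 2 and 3 were above all controls and mutant 4 among them. The difference was 0.46 ± 0.18 (SE; 95% interval 0.026 to 0.89), with an unadjusted p of 0.041 that did not pass adjustment (adjusted p = 0.511), and 0.32 ± 0.15 without mutant 2 (adjusted p = 0.650). It stood above 0 in all 8 fits that left out 1 array, from 0.32 to 0.605.

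Cox6a2, the heart and skeletal muscle form of subunit 6a, varied by set and not by genotype. In set 1 it read 4.13 and 4.68 in controls and 3.10 and 4.80 in mutants, and in set 2 it read 7.52 and 5.84 in controls and 7.72 and 6.82 in mutants. Every array of set 2 was above every array of set 1. Set 2 was 2.80 ± 0.54 higher (SE; limma adjusted p = 0.013), while mutants differed from controls by 0.07 ± 0.54 (SE; adjusted p = 0.967). Cardiac muscle genes were higher in set 2 as well: Myh6, a myosin heavy chain of the heart, by 4.71, Tnnt2, cardiac troponin T, by 4.87, and Mb, myoglobin, by 5.01 (adjusted p = 0.014, 0.015 and 0.008). Of the 11 tested striated and cardiac markers, 10 were higher in set 2, 6 of them at an adjusted p under 0.05 (limma). The other 1 was lower, at -1.83, and 5 more markers of the list were below the filter. Over the 11 tested markers the median deviation was between -2.65 and -0.72 in set 1 and between 0.70 and 2.67 in set 2. Their part in the Cox6a2 difference was not tested.

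**Figure D3:**
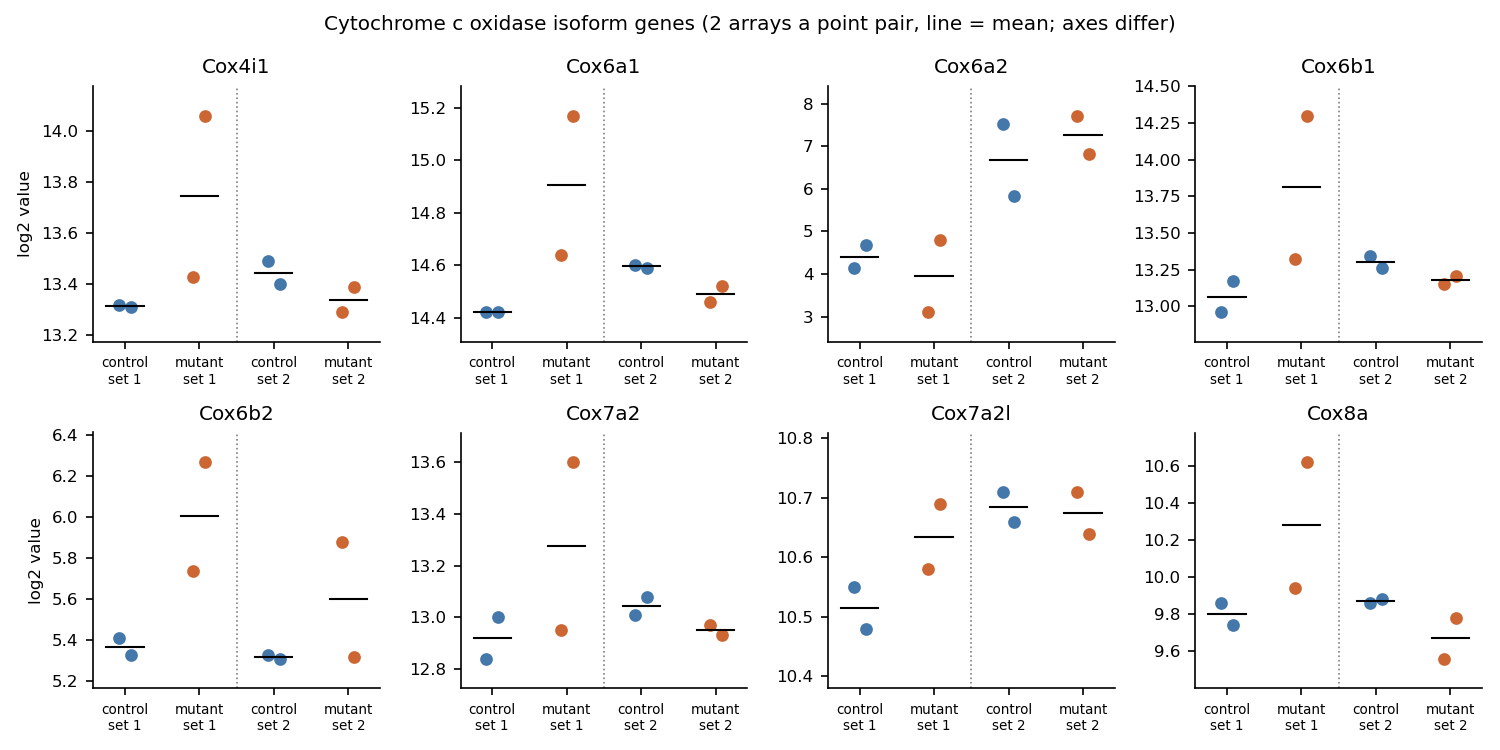
Log2 values (y axis, a separate scale in each panel) of 8 complex IV genes in the control and mutant arrays of each set (x axis), with each array as a point and lines at the means of 2 arrays. Cox6a2 is higher in all 4 arrays of set 2 than in set 1, while 1 mutant array of set 1, mutant 2, is the top point for Cox4i1, Cox6a1, Cox6b1, Cox6b2, Cox7a2 and Cox8a.

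The set number was the other factor of the design. With all arrays, 49 of 57 members were lower in set 2, with a median of -0.19, and 2 passed adjustment: Cox6a2 was higher in set 2 (10.9% of probe sets were) and Ndufb2 was lower by 0.31 (limma adjusted p = 0.039; 10.6% of probe sets were lower). Mutant 2 belongs to set 1, and this pattern rested on it too. Without it, 31 members were higher and 25 lower in set 2, with a median of 0.042. Then 4 members were higher at an adjusted p under 0.05, where 11.7% of probe sets were, and 4 lower, where 16.1% were. Higher were Ndufa2 by 0.22, Ndufa10 by 1.00, Uqcrc2 by 0.46 and Cox6a2 by 3.03 (adjusted p = 0.031, 6.2e-04, 0.010 and 0.011). Lower in set 2 were Ndufb2, Ndufs8, Sdhd and Uqcr11, with differences of -0.235, -0.25, -0.56 and -0.25 (adjusted p = 0.018, 0.014, 0.033 and 0.046). Ndufa2, Ndufa10, Ndufs8 and Uqcrc2 were named after their values were seen. Ndufa10, an accessory subunit of complex I, read 9.87, 10.09 and 9.95 in controls 1 and 2 and mutant 1, and between 10.91 and 11.06 in the 4 arrays of set 2.

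Within the sets the mutant differences had opposite signs. In set 1, 55 members were higher in mutants, with a median of 0.455, where 36.1% of probe sets were higher. In set 2, 9 were higher, 47 lower and 1 at 0, with a median of -0.075, where 46.9% of probe sets were higher. The difference of set 2 minus that of set 1 had a median of -0.535, and much of its size rested on mutant 2. Without mutant 2 the median was -0.15, and the sign mostly stayed, with 49 members below 0 and 8 above. Of the 27021 probe sets, 12659 were below 0 in that fit, with a median of 0.01. In 15 of 57 members (26.3%) both mutants were above both controls in set 1 and below both in set 2. Of all probe sets, 1.61% did this. The mutants of set 1 include mutant 2, the highest array in 52 of 57 members, so 1.61% is no background for this count. The difference between the sets itself passed adjustment for 0 members (limma), where 0.0518% of probe sets passed. At an unadjusted p under 0.05 it was below 0 for 3 members, where 2.59% of probe sets were: Ndufa4 at -0.865, Cox5a at -1.20 and Cox6a1 at -0.59, each with an adjusted p of 0.824. Leaving out a mutant of set 1 leaves 1 array in that arm, which is then assumed to vary like the other groups. Without mutant 2 the count below 0 at an unadjusted p under 0.05 was 7, where 3.38% of probe sets were, and 0 members passed adjustment, where 0.229% did. Without mutant 1 that arm is mutant 2, already seen to be high in most members, so the counts of that fit, 47 at an unadjusted p under 0.05 and 42 after adjustment (26.3% and 10.2% of probe sets), follow from that array and are no test of the sets.

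Other genes of energy metabolism were given from lists, and none passed adjustment in mutants against controls (limma). Of the 10 other electron carriers 9 were higher in mutants, with a median of 0.28, among them Cyc1, cytochrome c1 of complex III, at 0.37 ± 0.32 (SE; adjusted p = 0.671), and Etfb, an electron transfer flavoprotein subunit, at 0.41 ± 0.31 (SE; adjusted p = 0.649). Dhodh, which feeds electrons from pyrimidine synthesis, was at 0.17 ± 0.11 (SE; adjusted p = 0.609). ND5, the mitochondrial DNA-encoded subunit that the annotation names, differed by 0.21 ± 0.14 (SE; adjusted p = 0.620), and it was not highest in mutant 2 (15.18, against 15.24 in another array). Of 18 ATP synthase genes 13 were higher, with a median of 0.08, among them Atp5d at 0.27, while Atp5g1 and the inhibitor gene Atpif1 were at -0.14 and -0.105. Of 15 citric acid cycle genes 14 were higher, with a median of 0.32, among them the isocitrate dehydrogenase subunits Idh3g and Idh3b and the malate dehydrogenase Mdh2 at 0.335, 0.35 and 0.24. Of 39 assembly factors 25 were higher, with a median of 0.045, and the smallest p-values were those of Foxred1 at 0.375, Sdhaf4 at 0.29 and Sco1 at -0.37 (adjusted p = 0.526, 0.541 and 0.560).

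Without mutant 2 these lists were near 0 as well. The other electron carriers had a median of 0.016 with 7 of 10 higher, and Cyc1 and Etfb were at 0.020 and 0.084. ATP synthase genes had a median of -0.05 with 3 of 18 higher, and citric acid cycle genes a median of 0.002 with 8 of 15 higher, and assembly factors a median of -0.024 with 16 of 39 higher. Glycolysis genes were at 0.20 with all arrays and -0.04 without mutant 2, and of 13 tested, 10 and 5 were higher. With all arrays Pfkm, muscle phosphofructokinase, was the 1 gene of these lists at an unadjusted p under 0.05, at -0.25 ± 0.071 (SE; limma adjusted p = 0.444), beside Pfkp, the platelet form, at -0.155 and the triosephosphate isomerase Tpi1 at 0.12. Without mutant 2 there were 2 such genes, Pfkp at -0.24 ± 0.056 and Pfkm at -0.20 ± 0.058 (SE; limma adjusted p = 0.362 and 0.442), and Tpi1 was at 0.072. In mutant 2 the median deviation was 1.06 for the citric acid cycle, 0.595 for glycolysis and 0.51 for ATP synthase. Of the 13 glycolysis genes, 10 were highest and 2 lowest in mutant 2. The median deviation there was 0.245 for assembly factors and 0.06 for the 15 regulators of mitochondrial biogenesis. The regulators include Ppargc1a, Nrf1, Esrra and Tfam, and 10 of 15 were higher in mutants, with a median of 0.06. Those with the smallest p were the transcription factor Yy1 at -0.165, the mitochondrial RNA polymerase Polrmt at 0.14 and the mitochondrial transcription factor Tfb1m at 0.13 (adjusted p = 0.602, 0.603 and 0.616).

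White fat genes and part of the brown fat genes were also high in mutant 2. It was the highest array in all 7 tested white fat markers. Of the 10 tested brown fat markers it was highest in 5 (Ucp1, Cidea, Cox7a1, Cox8b and Kcnk3) and lowest in 2: Dio2, a deiodinase, at 7.08 against 7.16 to 9.76 elsewhere, and Prdm16, a transcription regulator, at 11.33 against 11.52 to 11.83. The isoforms left out of the members, Cox7a1 and Cox8b, are found in brown fat and muscle, and Ndufa4l2 is induced in low oxygen. Cox8b read 6.47, 9.61, 10.39 and 9.94 in controls and 10.06, 12.85, 9.20 and 10.39 in mutants, and Cox7a1 read 4.00, 7.79, 9.17 and 8.47 in controls and 7.89, 11.08, 8.40 and 8.91 in mutants. Both were highest in mutant 2 and lowest in control 1. Their differences were 1.52 ± 1.10 and 1.71 ± 1.19, and that of Ndufa4l2 0.80 ± 0.34 (SE; limma adjusted p = 0.634, 0.627 and 0.526). Without mutant 2 they were 0.59 ± 0.87, 0.70 ± 0.94 and 0.51 ± 0.26 (SE; adjusted p = 0.922, 0.909 and 0.671). Ucp1, the uncoupling protein that defines brown fat, was 12.16 in mutant 1 and 12.50 in mutant 2, against 6.83 to 10.77 in the other 6. In mutant 1 the median deviation of the 10 brown fat markers was -0.014, none of the 10 was highest there, and the members' median deviation was -0.03. In mutant 2 the medians were 1.54 for the list and 0.68 for the members. The means over the 8 arrays include mutant 2. From the means of the other 7 arrays, mutant 1 was at 0.044 for brown fat markers and 0.054 for the members. Of the 10 brown fat markers, 3 were highest of those 7 arrays in mutant 1. White fat markers in mutant 1 had a median deviation of 0.78 over the 8 arrays, and 6 of 7 were highest of the 7 arrays there. Lep, which encodes the fat hormone leptin, was 5.65 in mutant 2 and between 2.08 and 2.13 elsewhere, and Th and Dbh, enzymes of catecholamine synthesis, were 9.92 and 11.66 there and at most 2.20 and 3.19 elsewhere. Over the lists, the summed linear level of the 10 tested brown fat markers was 4934 to 10382 in controls and 6622 to 30235 in mutants, and that of the 7 tested white fat markers 23360 to 36824 in controls and 25917 to 106933 in mutants. Zic1 and Lep were the 2 fat markers below the filter. The part of these cell types in the members' excess in mutant 2 was not tested.

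**Figure D4:**
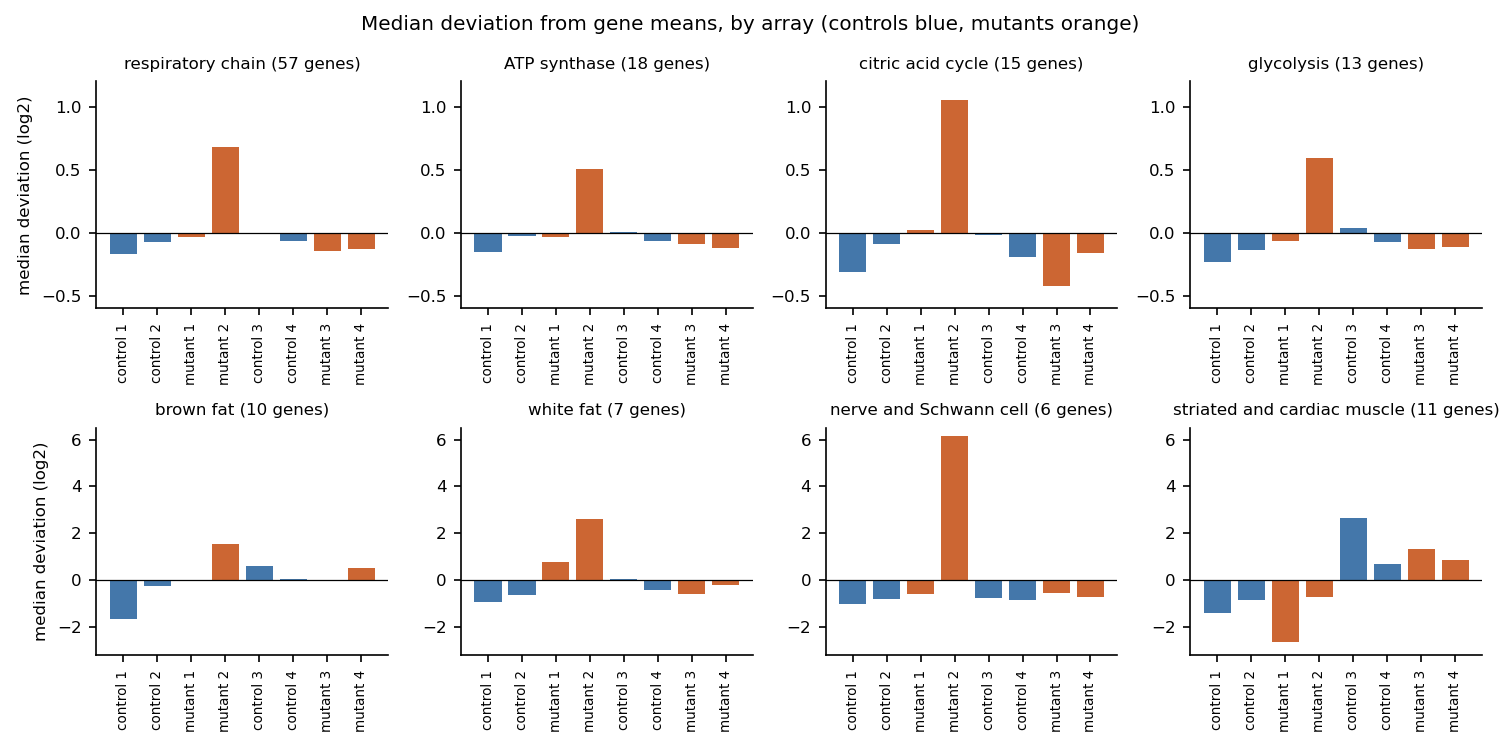
Bars give, for each array (x axis), the median over a list of each gene's log2 value minus its mean over the 8 arrays (y axis, 1 scale per row), for the respiratory chain members, 3 other metabolic lists (top) and 4 cell type lists (bottom). Mutant 2 is the highest bar in the 4 metabolic lists and in the fat and nerve lists, while the striated and cardiac muscle list is higher in set 2 than in set 1.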

How the data were processed

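Total RNA of 8 mouse aorta samples, 4 mutant and 4 control, was labelled from 2 ug per array for Affymetrix arrays, per the labels' protocols. The submitters' processing notes name GCOS, without a version, and the sources used here give neither the background correction nor the normalization. The deposited table holds log2 values for 45037 probe sets, from 0.90 to 15.82, and array medians lay between 3.72 and 3.98. The log2 scale was read from these values. The annotation names 34945 probe sets with 1 symbol, 932 with several and 9160 with none, and no symbol changed through the gene identifier.

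The lowest 40% of probe sets by mean were dropped, which kept 27021 (lowest mean kept 2.97). Each gene was represented by its brightest probe set over the 8 arrays. Deposited values went into limma 3.58.1 (R 4.3.3) without change, in a model of genotype plus title set with a mean-variance trend. Tests were two-sided, adjusted by Benjamini-Hochberg over these 27021. Scripts ran in Python 3.11.15. A list is described by counts and medians, with no test. The number of arrays limits the precision. In 3 tables of simulated data, a change counted as recovered at an adjusted p under 0.05. The fit recovered 22.7% of changes of 0.5, 56.7% of changes of 1, 89.3% of changes of 2 and 60.7% of changes of -1. False calls numbered 13 among 80463. Simulated noise was independent, with the same spread of a probe set in all 8 arrays. No simulated array stood apart as mutant 2 did, so these shares need not hold for the real data.

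Genes named are all Sdh genes, the complex IV isoforms, Uqcrfs1, Ndufa4, the 4 smallest p-values and the highest and lowest differences of complexes I, III and IV, the highest and lowest mean over all members, members passing adjustment, and the 3 smallest p-values of each pathway list. Others were named after their values were seen. The members, the 16 lists and the rules were chosen with earlier results of these data known. Alternatives were other filters, normalizations, variance models, array weights, probe set choices, single sets and leaving out each array. Those for the set and interaction results were chosen after seeing the data.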

Additional observations from a re-analysis of the deposited data

Results flagged for a closer look

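Within a group of 4 arrays, the gap between an extreme array and its nearest neighbour was set against the group's whole range, and values whose ratio was above Dixon's 95% critical value are given here. Chance gives about 1 in 20 groups such a ratio. Mutant 2 was the high array in 20 of the 57 members, control 1 was the extreme in 1 and control 2 in 1. The share of all probe sets with such a ratio was not computed. The members were also measured on the same 4 arrays, so the rate of 1 in 20 is no background for mutant 2.

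The ratio was 0.832 for the median level of all members and 0.879 for that of complex I, with mutant 2 high among the mutants in both. Among the named genes of complex I it was 0.911 for Ndufb11, 0.87 for Ndufa5, 0.867 for Ndufs7 and 0.887 for Ndufv1. In complexes II and III it was 0.836 for Sdha, 0.85 for Uqcrq and 0.857 for Uqcrb. In complex IV it was 0.852 for Cox6b1 and 0.94 for Cox7a2. All of these had mutant 2 high. Cox8a had control 2 low among the controls, with a ratio of 0.857 over a range of 0.14 on the log2 scale.

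In 7 named genes the mutant-control difference ran in opposite directions in the sets, with both mutants above both controls in set 1 and below both in set 2. The difference of set 2 minus that of set 1 was -0.41 for Sdhc, -0.535 for Cox4i1, -0.59 for Cox6a1, -0.865 for Cox6b1, -0.68 for Cox8a, -0.865 for Ndufa4 and -0.435 for Cox6c. None passed adjustment by limma's interaction term (adjusted p = 0.824 each). Without mutant 2, the highest array in all 7, these values were -0.25, -0.22, -0.325, -0.375, -0.34, -0.53 and -0.21 in the same order, all still below 0 (adjusted p from 0.625 to 1.00), with 1 array left for the mutants of set 1.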

How the results depend on the processing

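Members higher and lower in mutants (54 and 3 with the main settings) kept their majority in every alternative run except without mutant 2 and in set 2 alone. Lower members numbered 6 of 61 with no filter, 11 with each array centred on its median and 21 with array weights, which gave mutant 2 a weight of 0.155 and the other arrays 0.832 to 3.3. With the second brightest probe set 33 of 35 were higher. In set 2 alone 9 were higher and 47 lower, and the medians were -0.075 for all members, -0.055, -0.2125, -0.11 and -0.10 for complexes I to IV. Leaving out each array in turn gave 25 to 55 higher and 2 to 32 lower, medians of -0.011 to 0.258 for all members and of -0.010 to 0.25, -0.0125 to 0.4285, -0.020 to 0.379 and -0.008 to 0.244 for complexes I to IV, and the extreme low values were without mutant 2. The cause was not tested.

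Members at an unadjusted p under 0.05 (1) numbered 0 with median centring, no set term, the second brightest probe set and set 1 alone, 3 in set 2 alone, and 0 to 2 with each array left out. Members at an adjusted p under 0.05 were 0 in all alternatives run. Probe sets at an unadjusted p under 0.05 (2581) were 1279 with no set term, 1192 with gene means (of 11570 genes), 1485 in set 2 alone and 1426 to 2944 with arrays left out. Those at an adjusted p under 0.05 (0) were 10 with array weights and 0 to 11 with arrays left out. Of the 25 named members tested, 9 changed sign without mutant 2, 18 in set 2 alone, and 3 or fewer in each other alternative.

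Between sets, members lower in set 2 at an adjusted p under 0.05 (1) were 0 with no filter and with median centring, and 0 to 4 with arrays left out. Those higher (1) were 1 to 4, and all lower members 25 to 50. Interactions at an unadjusted p under 0.05 (3) were 5 with quantile normalization and 0 to 47 with arrays left out, and at an adjusted p (0) 0 to 42, both highest without mutant 1, where mutant 2 is the lone mutant of set 1. No paired analysis was possible because replicate numbers were given in accession order and pair no samples.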

Other observations

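Probe sets that the annotation gives to several symbols were not used above, and 9 of them name a complex I gene. The brighter of the 2 shared by Ndufb4, Ndufb4b and Ndufb4c read 10.90, 11.04, 11.09 and 10.93 in controls and 11.05, 12.04, 10.88 and 10.93 in mutants, while the probe set given to Ndufb4 alone was between 2.02 and 2.06 in all 8 arrays. The shared probe set thus had mutant 2 as its highest array, with an excess of 1.07 over the mean of the other 7. Probe sets shared by Ndufs6 and Ndufs6b and by Ndufs5 and its pseudogene had excesses of 0.58 and 0.57 in mutant 2. The brighter of the probe sets shared by Ndufa11 and Ndufa11b had an excess of 0.15.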
